A study of Mus musculus with 36 samples.

Results

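Livers of mice given the casein amino acid mixture (CAAM) were compared with livers of mice given water, on 12 of the 36 arrays of the series, 5 from the CAAM group and 7 from the water group. The animals were male ddY mice, an outbred stock, 5 weeks old at arrival. All were gavaged once daily for 5 days with 37.5 µL per g of body weight, the CAAM group with a 1.8% solution of free amino acids in the proportions of casein and the water group with water alone. On the last day food was taken away from both groups before the final dose, and livers were collected 4 h after it. CAAM served in the study as the control for another amino acid mixture, whose arrays were not analysed here. Each array held RNA of 1 mouse, the groups share no animal, and the same number in both groups marks different mice. According to the study's methods, a further pair of CAAM mice was set aside for abnormal liver morphology, and any bearing of that choice on the liver values was not tested. The labels give no other batch. Hepatocyte markers were high in all 12 liver samples, with albumin (Alb) at a mean score of 15.0 and the hepatocyte factor Hnf4a at 11.9. Of 7 adipocyte markers Adipoq, Ucp1, Cidea and Lep scored from 6.07 to 6.43, below the liver array median of 6.81, and Lipe, Retn and Fabp4 scored 7.12, 7.27 and 8.56.

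The liver is the first organ to receive absorbed amino acids. It deaminates those that are not needed for protein synthesis, passes their nitrogen to the urea cycle and turns carbon skeletons into glucose or fat. Insulin, released after feeding, holds down gluconeogenic genes through FOXO factors, while glucagon and glucocorticoids raise them when food is short. Liver sinusoids are lined by resident macrophages, the Kupffer cells, and hepatocytes answer cytokines from such cells by making acute phase proteins.

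Values are distribution free weighted (DFW) scores, a summary that keeps a level close to a log2 intensity but shrinks the variation between arrays by a factor that differs between probe sets. The standard deviation (SD) between mice of a group was 1.07e-05 score units at the median probe set, 1.96e-06 at the 5% quantile and 0.000323 at the 95% quantile, so a difference in score is not a log2 fold change. Each mouse is therefore given in SD units from the water mean, where 1 unit is the pooled SD within groups of that probe set. The standardised difference is the CAAM mean minus the water mean in these units. With 5 and 7 mice its standard error is 0.59 if the SD is taken as known. The SD was estimated from the same mice, so the error is larger than that, the more so for large differences. CAAM values are listed in the order of mice 2, 4, 5, 6 and 7. The study's own test, rank products with an estimated false positive share below 0.05, called 730 probe sets higher in the CAAM group (1.62% of 45037) and 535 lower (1.19%), 59 of them in both directions. "Up-regulated" and "down-regulated" below refer to this test alone. limma, which weighs a difference against the spread of the same probe set, passed 0 probe sets after adjustment (lowest adjusted p = 0.535), and 1232 higher (2.74%) and 1815 lower (4.03%) at an unadjusted p under 0.05. The 1206 probe sets that rank products called were mostly variable ones, 98.6% lying in the tenth with the largest SD. Of these 1206, 282 had an unadjusted limma p under 0.05. The permutations shuffled each array over all probe sets and so treated them as alike in spread. With spreads this unequal the estimated false positive share need not hold, and a call is not by itself a group difference. With ranks taken on SD units the calls were 127 higher and 177 lower, of which 28 and 10 were shared. Without overlap between the groups, 75 probe sets lay higher (0.167%) and 124 lower (0.275%) in the CAAM group. Water mouse 3 was the highest of the 12 mice in 14.1% of probe sets, and CAAM mice 4 and 5 were the lowest in 12.7% and 11.4%.

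Genes up-regulated by CAAM were led by Nnmt, Igfbp1, Armcx4, Fabp5, Mt1, Reep3, Noct and Saa2, which span nicotinamide methylation, the fasting and stress hormone response, fatty acid binding, metal binding and the acute phase. Nnmt, the methyltransferase that clears nicotinamide, stood at 1.92, 0.25, 1.69, 2.24 and 0.099 SD units in the CAAM mice and from −0.99 to 1.82 (median −0.23) in the water mice. Its mean score was 8.53 against 7.85, and water mice 4, 5 and 7 lay within the CAAM range (standardised difference 1.24, 1.87 without water mouse 4). Mt1, a metallothionein that binds zinc and responds to glucocorticoids, had CAAM values of 0.77, 2.24, 1.7, 2.69 and 0.57 and water values from −1.1 to 1.97 (median −0.31). Armcx4, an armadillo repeat gene of unsettled function, scored 1.94, 2.57, 4.39, 2.3 and 1.59 against from −0.75 to 2.01 (median −0.18), and water mouse 1 was the single water mouse inside the CAAM range (standardised difference 2.56). Fabp5, a carrier of long-chain fatty acids, scored 1.22, 1.19, 2.75, 0.45 and 2.13 against from −1.1 to 2.16 (median −0.22), with water mouse 2 high (1.55, and 2.69 without it). Mt1 moved from 1.6 to 2.47 without water mouse 6. The serum amyloid Saa2, at 0.041, −0.47, 3.37, 1.55 and 0.40 against from −0.47 to 0.48 (median 0.025), was raised in mice 5 and 6 and lay within the water range in the other 3. Without CAAM mouse 4 its standardised difference went from 0.98 to 1.48. Reep3, an endoplasmic reticulum shaping protein, was low in 1 mouse of each group and high in the rest, and its standardised difference of 0.18 turned to −0.20 without water mouse 2 and −0.015 without CAAM mouse 2.

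Among the down-regulated genes were enzymes of detoxification and of carbon dioxide handling, a brake on pyruvate oxidation and a pair of regulators of growth. Pdk1, the kinase that switches off pyruvate dehydrogenase, stood at −3.9, −3.4, −1.05, −2.5 and −4.84 SD units in the CAAM mice and from −0.65 to 0.86 (median −0.097) in the water mice. All 5 CAAM mice lay below the lowest water mouse, with a standardised difference of −3.14 (−5.15 without CAAM mouse 5). Of 3 other Pdk1 probe sets, 2 had the same sign. Phlda1, a pleckstrin homology protein, scored −1.38, −3.59, −1.62, −4.19 and −1.98 against from −1.37 to 0.72 (median 0.06) and likewise did not overlap (−2.55). Clec2h, a C-type lectin, had CAAM values of −2.42, −0.72, −3.88, −2.12 and −2.18 and water values from −1.75 to 0.76 (median 0.57) (−2.26). Car3, one of the carbonic anhydrases, was called at a dim probe set (mean score 7.67), where the CAAM group was uniformly low, at −1.37, −1.45, −1.39, −1.5 and −1.13, whereas the water mice spread from −1.81 to 1.37 (median 0.53). Water mice 1, 3, 5 and 7 were high and mice 2, 4 and 6 low. The brightest Car3 probe set (mean score 14.3) was not called and had a standardised difference of −0.58. Gstp3, a glutathione transferase, scored −1.44, −1.71, 0.25, 0.53 and −1.64 against from −1.69 to 0.58 (median 0.51), so that mice of both groups fell into a high and a low set (−0.80, −1.26 without water mouse 5 and −1.22 without CAAM mouse 6). Id2, a target of BMP signals that blocks helix-loop-helix factors, scored −1.65, −1.5, 0.21, −2.21 and −1.46 against from −2.13 to 0.86 (median 0.32), with water mouse 6 at the lowest water value (−1.32, −2.32 without it). Uqcr10 and Gdpd3, the remaining leading genes, are described with the genes that follow the mouse.

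**Figure D1:**
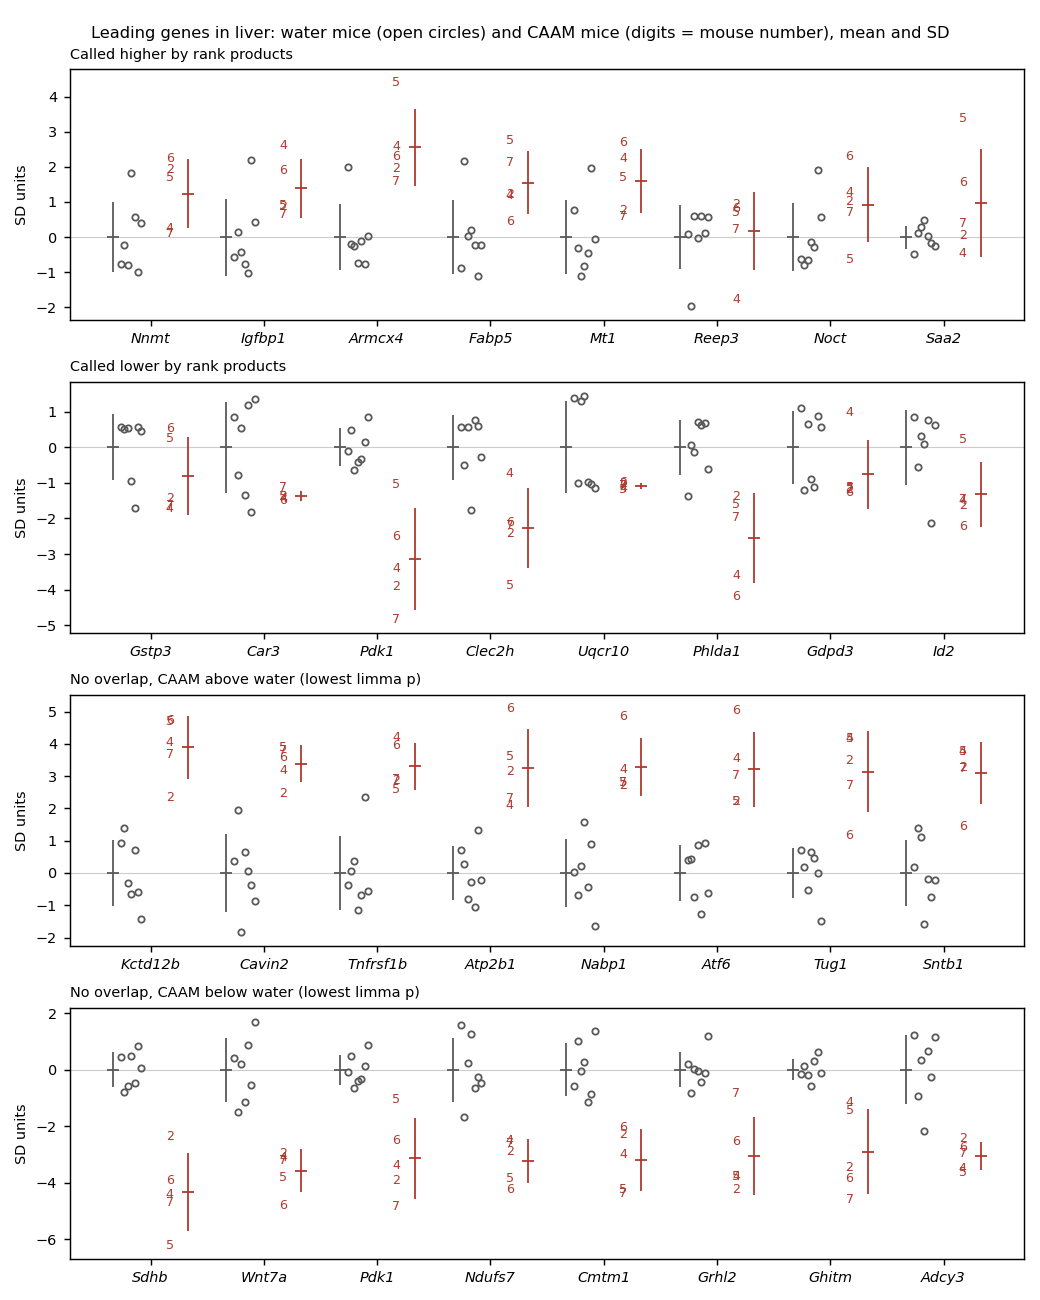
Deposited scores of the leading genes in SD units from the water mean (vertical axes) for each of the 7 water mice (open circles) and 5 CAAM mice (digits give the mouse number), with a bar for the group mean and its SD. The 2 upper panels hold genes led by rank products, where the groups mostly overlap, and the 2 lower panels hold genes whose groups do not overlap, led by the limma p.

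Genes without overlap between the groups were ordered by their limma p, and the first 8 on each side are named. Higher in the CAAM group were Kctd12b, Cavin2, Tnfrsf1b, Atp2b1, Nabp1, Atf6, Tug1 and Sntb1, with standardised differences from 3.09 to 3.89. In score units their differences ran from 1.9e-05 (Kctd12b) to 0.00045 (Cavin2). All but that of Cavin2 were smaller than the span from the lowest to the highest liver array median, 0.000345. Kctd12b had a mean score of 6.99, near the liver array median of 6.81. Cavin2, a caveolar coat protein of endothelium and fat cells, scored 2.47, 3.19, 3.89, 3.57 and 3.8 against from −1.84 to 1.96 (median 0.062) and was also up-regulated by rank products. Tnfrsf1b, the second receptor for tumour necrosis factor, was up-regulated as well, at 2.87, 4.19, 2.59, 3.95 and 2.91 against from −1.16 to 2.36 (median −0.38) (3.3, and 5.9 without water mouse 6). Rank products no longer called it without CAAM mouse 6 or 7, when it stood at 3.06 and 3.25. The only other Tnfrsf1b probe set did not have the same sign, and of 2 other Tug1 probe sets 1 did. Atf6, a sensor of unfolded protein in the endoplasmic reticulum, scored 2.22, 3.55, 2.22, 5.03 and 3.02 against from −1.29 to 0.93 (median 0.39). When the 12 arrays were quantile normalized, an alternative added after the data were seen, the median of all probe sets moved from −0.09 to −0.49. Kctd12b (−1.13), Nabp1 (−0.68) and Sntb1 (−0.55) then lay below that median. Tnfrsf1b (−0.43), Atp2b1 (−0.42) and Atf6 (−0.25) were negative but above it, and Tug1 (0.26) and Cavin2 (1.5) were positive.

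Lower without overlap were Sdhb, Wnt7a, Pdk1, Ndufs7, Cmtm1, Grhl2, Ghitm and Adcy3. Except for Pdk1 and Ghitm, their differences in score units, from −4.9e-05 (Wnt7a) to −9.7e-06 (Sdhb), were small next to the span of the array medians, 0.000345. Mean scores of Cmtm1 (6.99), Grhl2 (6.95) and Wnt7a (7.22) lay not far above the liver array median of 6.81. Sdhb, the iron-sulfur subunit of succinate dehydrogenase, scored −2.37, −4.4, −6.21, −3.91 and −4.7 in the CAAM mice and from −0.78 to 0.84 (median 0.057) in the water mice (−4.32, −6.3 without CAAM mouse 2). Ndufs7, a complex I subunit, scored −2.91, −2.49, −3.83, −4.23 and −2.62 against from −1.69 to 1.57 (median −0.26). Ghitm, an inner membrane protein of mitochondria, scored −3.45, −1.17, −1.44, −3.84 and −4.59 against from −0.56 to 0.61 (median −0.13) and was down-regulated by rank products too. Wnt7a, a secreted signalling protein, had −2.95, −3.1, −3.79, −4.8 and −3.21 against from −1.5 to 1.69 (median 0.20). The standardised differences of these 8 genes ran from −4.32 to −2.9. Of 3 other Adcy3 probe sets, 1 had the same sign. After quantile normalization Grhl2 (−0.35) and Adcy3 (−0.27) lay above the shifted median of all probe sets.

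Of 18194 genes, each taken at its brightest probe set, 2.03% were up-regulated and 1.46% down-regulated, the median standardised difference was −0.11, and 43.6% had a higher mean in the CAAM group. Against this background 48 gene lists were described by counts and medians, without a test of the lists. The lists and their members were chosen with earlier results of these data known. The background is not matched to the spread of a list's members. As 98.6% of called probe sets lay in the tenth with the largest SD, a list of variable genes can exceed it without a group difference. The lists with the highest medians were those of Kupffer cells (1.23), the glucocorticoid response (0.89), the acute phase (0.82), tRNA synthetases (0.81) and the interferon response (0.61), and that with the lowest was oxidative phosphorylation (−1.08). After quantile normalization the medians of the Kupffer cell, glucocorticoid, acute phase and interferon lists were 1.06, 0.98, 0.61 and 0.41, that of tRNA synthetases turned to −0.66, and that of oxidative phosphorylation, at −0.55, was close to the shifted median of all probe sets. No tRNA synthetase was called among 19. With ranks taken on SD units 40 of the 48 lists held no call. The remaining 8 held 1 or 2 calls each, higher for the glucocorticoid response, immediate early genes, bile acids and chaperones and lower for glycolysis, insulin signalling, carbonic anhydrases and oxidative phosphorylation. These need not be members called on the deposited scores. Sdhb, of oxidative phosphorylation, was called on SD units alone.

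**Figure D2:**
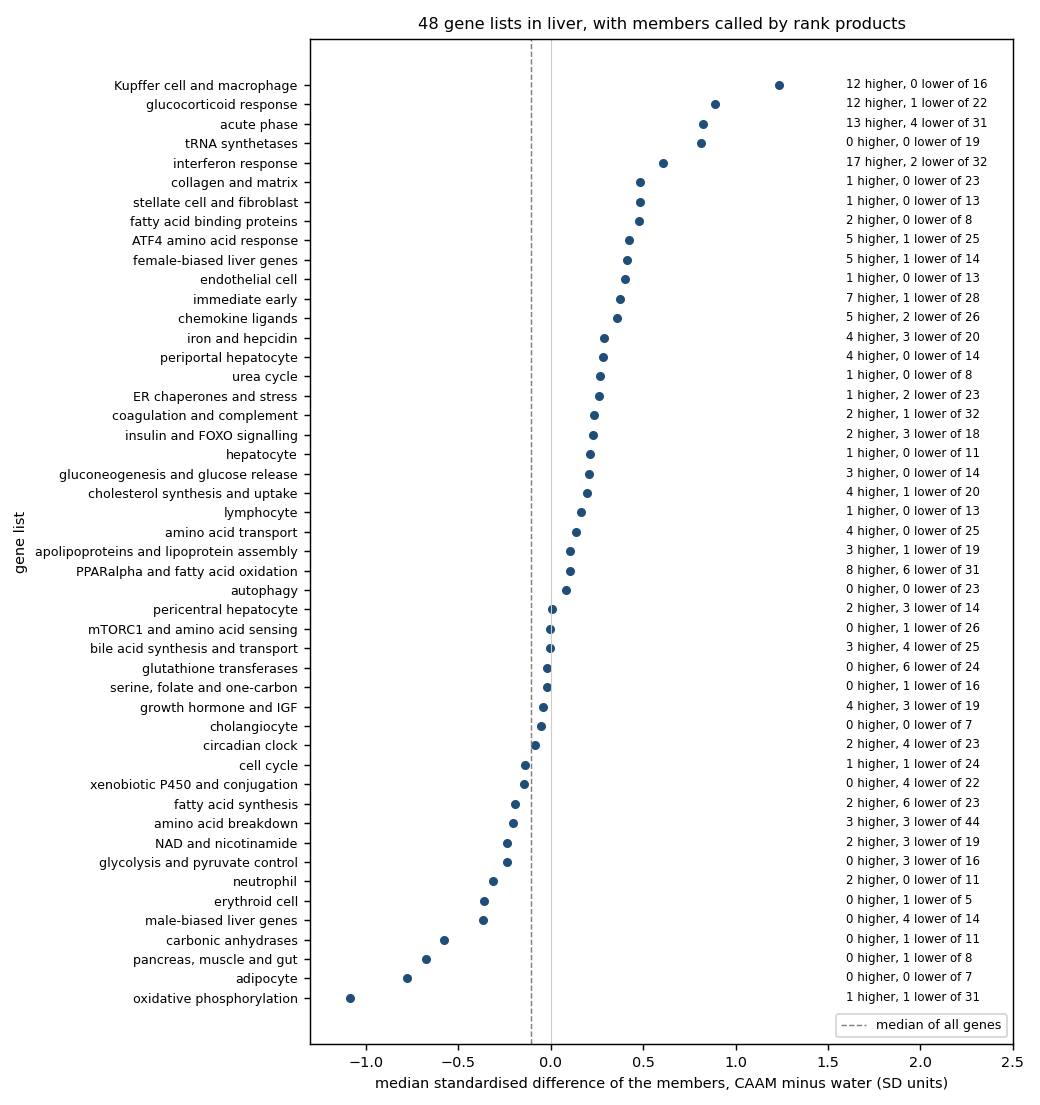
Median standardised difference of the measured members of 48 gene lists in liver (horizontal axis, SD units, CAAM minus water; 1 row per list), with the count of members called by rank products. The dashed line is the median of all genes at −0.11; Kupffer cell markers lie highest at 1.23 and oxidative phosphorylation lowest at −1.08.

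Genes that respond to glucocorticoids were mostly higher in the CAAM group. Of 22 measured members 12 were up-regulated and 1 was down-regulated (background 2.03% and 1.46%), 18 had a higher mean in the CAAM group, and the count up-regulated ran from 10 without CAAM mouse 6 to 15 without water mouse 4. With ranks taken on SD units 1 was called higher. Sgk1, a kinase that hormones and cell volume induce, scored 0.86, 4.07, 1.73, 2.17 and 1.9 in the CAAM mice and from −0.79 to 1.5 (median 0.07) in the water mice (2.14). Dusp1, the phosphatase that ends MAP kinase signals, scored 1.29, 1.34, 2.1, 1.58 and 2.03 against from −1.68 to 2.4 (median −0.076), with water mouse 1 above every CAAM mouse (1.67, 3.44 without it). Cebpd, a transcription factor of the stress and acute phase response, scored 0.77, 2.1, 1.46, 2.77 and 0.38 against from −0.82 to 1.82 (median −0.43) (1.5). Tsc22d3, known as the glucocorticoid-induced leucine zipper, scored 2.06, 2.32, 0.22, 2.54 and 0.27 against from −0.64 to 1.96 (median −0.20). CAAM mice 2, 4 and 6 were above all water mice for this gene, while mice 5 and 7 were near the water mean. Igfbp1, the fasting-induced binding protein of insulin-like growth factors, scored 0.88, 2.61, 0.91, 1.91 and 0.65 against from −1.03 to 2.2 (median −0.43), and Tat, the enzyme that starts tyrosine breakdown, 1.29, 1.77, 0.55, 3.11 and 0.50 against from −1.73 to 1.49 (median −0.031) (1.44). Errfi1, a feedback inhibitor of the EGF receptor, had 1.4, 1.46, 0.58, 1.84 and 1.19 against from −1.57 to 1.48 (median 0.18) (1.29) and lost its call without any of water mice 3, 5 and 7 and of the 5 CAAM mice, although the difference stayed at 1.12 to 1.44.

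Water mouse 6 was set apart from its group in this set of genes. It lay at 2.2 for Igfbp1, 1.96 for Tsc22d3, 2.21 for the transcription factor Cebpb and 1.95 for the clock gene Per1, the highest water value each time and within the CAAM range. Its glucocorticoid list score, the mean of the members in SD units, was 0.89, against −0.45 to 0.43 in the other 6 water mice and 0.44 to 1.45 in the CAAM mice. Without water mouse 6 the standardised difference of Igfbp1 went from 1.39 to 2.53, that of Cebpb from 1.06 to 2.06, that of Tsc22d3 from 1.48 to 2.31, that of Per1 from 0.93 to 1.59 and that of Pck1, the enzyme that commits carbon to gluconeogenesis, from 1.17 to 1.75. In the CAAM group mouse 6 carried the highest value of Cebpd, Tsc22d3, Tat, Cebpb and Per1, and mouse 4 that of Sgk1 and Igfbp1.

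Promoter windows of the up-regulated glucocorticoid genes are shown for 3 that hold a motif, chosen by hand. Errfi1 also holds a motif and is not shown. Windows run from 250 bases before to 50 bases after a RefSeq start (GRCm38.p6), and 11 of the 12 genes had at least 1, with 20 windows in all. Capitals mark the palindromic glucocorticoid element (GNACA and TGTNC with 3 bases between), the cAMP element TGACGTCA and the E-box CACGTG, each searched on both strands. Among 32851 windows of the genome these letters occur in 0.475%, 1.79% and 7.15%. In the 20 windows they were found in 1 (Sgk1), 2 (Dusp1 and Errfi1) and 3 (Sgk1, Per1 and Dusp1). A match describes the letters alone, and binding was not measured.
Sgk1 (chr10:21993640-21993939, plus strand, the window of 6 that holds a motif): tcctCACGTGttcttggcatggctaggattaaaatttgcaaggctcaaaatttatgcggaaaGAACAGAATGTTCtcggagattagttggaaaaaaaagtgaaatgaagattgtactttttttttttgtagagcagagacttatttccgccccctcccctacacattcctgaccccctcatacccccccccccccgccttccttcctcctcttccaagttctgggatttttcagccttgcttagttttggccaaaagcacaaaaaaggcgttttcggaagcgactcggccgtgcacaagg
Per1 (chr11:69098699-69098998, plus strand, 1 of 2 windows): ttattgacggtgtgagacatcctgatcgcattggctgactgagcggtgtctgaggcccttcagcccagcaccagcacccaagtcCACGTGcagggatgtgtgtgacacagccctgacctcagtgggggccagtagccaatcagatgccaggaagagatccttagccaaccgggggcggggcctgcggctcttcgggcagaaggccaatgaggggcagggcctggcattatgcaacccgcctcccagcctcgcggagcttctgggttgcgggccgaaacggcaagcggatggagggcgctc
Dusp1 (chr17:26508423-26508722, minus strand): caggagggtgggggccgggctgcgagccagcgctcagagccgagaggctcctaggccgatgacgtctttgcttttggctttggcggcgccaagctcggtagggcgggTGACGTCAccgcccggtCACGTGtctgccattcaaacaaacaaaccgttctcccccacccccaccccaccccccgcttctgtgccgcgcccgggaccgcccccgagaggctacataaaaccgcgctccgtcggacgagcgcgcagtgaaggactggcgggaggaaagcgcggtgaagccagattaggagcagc

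Genes tied to insulin signalling moved in a mixed way, with 2 of 18 up-regulated and 3 down-regulated (background 2.03% and 1.46% of genes). Irs2, an insulin receptor substrate induced in the fasted liver, scored −2.79, −0.59, −3.55, −0.34 and −2.52 against from −0.93 to 0.87 (median −0.084), and 3 of the CAAM mice (2, 5 and 7) lay far below all water mice (−1.96). Removing water mouse 6, water mouse 7 or CAAM mouse 5 ended its call (differences of −1.8, −1.8 and −1.79). Ptpn1, a phosphatase that dampens insulin receptor activity, was up-regulated at 0.41, 0.54, 3.9, 0.51 and 0.88 against from −0.47 to 0.76 (median −0.097), with CAAM mouse 5 far above the rest, and the call was lost without any 1 of the 5 CAAM mice, although the difference of 1.25 was then 1.28 to 1.59. Of 28 immediate early genes 7 were up-regulated and 1 down-regulated (the same background), and without CAAM mouse 5 the counts were 4 and 3. Klf2, a zinc finger factor of endothelium and blood cells, scored 2.17, 0.94, 2.21, 3.85 and 1.8 against from −1.17 to 1.23 (median −0.11) (2.19), and Zfp36, which hastens decay of cytokine mRNA, 1.22, 1.4, 0.72, 3.08 and 1.11 against from −1.19 to 1.52 (median −0.13) (1.51). Gadd45b, a stress gene, did not overlap (2.33, 1.18, 2.01, 3.62 and 3.07 against from −2.07 to 1.01 (median 0.23)), as was so for 0.165% of genes in this direction. It was not called, and was at −0.39, above the shifted median, after quantile normalization. Fosb, a partner of Jun proteins, was not called either, at −1.96, −1.07, −1.57, −4.36 and −0.85 against from −0.94 to 0.95 (median 0.02).

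Clock genes showed more difference between mice than between groups, and their list median of −0.085 lay near that of all genes, −0.11. Of 23 measured genes 2 were up-regulated and 4 down-regulated (background 2.03% and 1.46% of genes). Noct, a phosphatase with a strong daily rhythm, scored 1.0, 1.27, −0.64, 2.3 and 0.70 against from −0.78 to 1.91 (median −0.28), with CAAM mouse 5 at the water level (0.93, 1.56 without water mouse 6 and 1.5 without CAAM mouse 5). The output factors Dbp, Tef and Per3 were all called lower, with standardised differences of −0.28, −0.29 and −0.18. In CAAM mice Dbp stood at −1.86, −0.26, −0.73, 0.65 and 0.81, so mice 6 and 7 were above the water mean and mice 2, 4 and 5 below it. Water mice 6 and 7 had Dbp at 1.0 and 1.02 and water mouse 2 at −1.44. Leaving out 1 mouse put Dbp between −0.57 and 0.13, Tef between −0.61 and −0.0091 and Per3 between −0.60 and 0.055, so the sign of Dbp and Per3 rested on single mice.

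**Figure D3:**
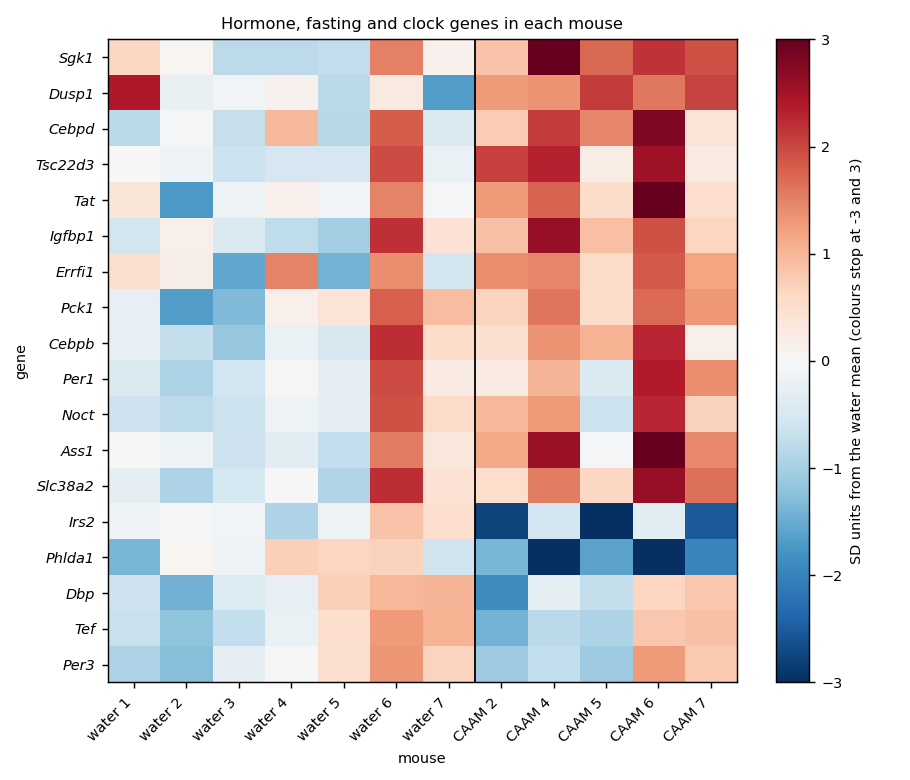
Genes of the hormone, fasting and clock response (rows) in each mouse (columns; 7 water mice left of the line, 5 CAAM mice right of it), coloured by SD units from the water mean. Water mouse 6 and CAAM mouse 6 share high values of most hormone genes, Irs2 is low in CAAM mice 2, 5 and 7 and Phlda1 in all 5, and Dbp, Tef and Per3 are high in mice 6 and 7 of both groups.

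Several lists of amino acid handling held calls at a share above the background of 2.03% up-regulated and 1.46% down-regulated, and no member was called with ranks taken on SD units. Of 44 enzymes of amino acid breakdown 3 were up-regulated and 3 down-regulated, and their median of −0.21 lay near that of all genes. Besides Tat, the aspartate aminotransferase Got1 (1.5, 0.59, 1.81, 1.59 and −0.36 against from −1.69 to 1.2 (median 0.21), 1.03) and Csad, an enzyme of taurine synthesis from cysteine (1.52, 1.92, 1.35, 0.79 and 1.35 against from −2.18 to 1.25 (median 0.35), 1.39), were up-regulated. Aadat, which transaminates aminoadipate and kynurenine, was down-regulated at −2.21, 0.65, −1.48, −1.27 and −1.26 against from −1.1 to 1.26 (median −0.15), with CAAM mouse 4 apart from the other 4 (−1.11, −1.89 without it). Prodh, the first enzyme of proline breakdown, was called lower at 0.44, −1.13, −1.29, 0.84 and −2.54 against from −1.06 to 0.59 (median 0.25), a call lost without any of the mice except CAAM mice 2 and 6, with differences from −0.93 to −0.35. Its paralog Prodh2, which acts on hydroxyproline, and Gstz1, of the tyrosine pathway, were not called. Prodh2 scored −0.56, −1.56, −3.29, −1.05 and −2.15 against from −1.16 to 1.59 (median 0.0098), and its sign turned under quantile normalization. Gstz1 scored −0.96, −1.66, −2.27, −0.55 and −3.58 against from −1.24 to 1.47 (median 0.067), and every CAAM mouse lay below the water median.

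In the urea cycle 1 of 8 genes was up-regulated (background 2.03% of genes). This was Ass1, argininosuccinate synthetase, at 1.13, 2.6, −0.064, 3.18 and 1.44 against from −0.73 to 1.53 (median −0.15), with CAAM mouse 5 at the water level (1.66, 2.5 without it). The call was lost without CAAM mouse 2, 4, 6 or 7, at differences from 1.43 to 1.73. Among 25 amino acid transporters 4 were up-regulated and 0 down-regulated (background 2.03% and 1.46% of genes). Slc38a2, a carrier of small neutral amino acids that is induced when they are scarce, scored 0.54, 1.53, 0.63, 2.6 and 1.66 against from −0.92 to 2.22 (median −0.28), and water mouse 6 was again the highest water mouse (1.39, 2.56 without it). Slc7a8, the light chain of an exchanger of large neutral amino acids, scored 2.7, 1.91, 2.52, 0.42 and 2.88 against from −1.6 to 1.58 (median 0.12) without a call, and its sign turned under quantile normalization. Of 25 targets and factors of the ATF4 amino acid response 5 were up-regulated and 1 down-regulated, 1 of them in both directions. Among the called genes was the factor Atf5 at 1.33, 0.31, 1.36, −0.025 and 2.45 against from −1.44 to 1.04 (median −0.044) (1.08). The list median of 0.43 was 0.17 without CAAM mouse 7 and −0.04 under quantile normalization. None of 26 genes of mTORC1 and amino acid sensing was up-regulated, and 1 was down-regulated.

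The list of glycolysis and pyruvate control was called in 3 of 16 genes, all lower (background 1.46% of genes), and that of gluconeogenesis and glucose release in 3 of 14, all higher (background 2.03%). With ranks taken on SD units the calls were 1 and 0, and without CAAM mouse 2, 4 or 6 the second list also had 1 gene called lower. Khk, the kinase that traps fructose, was down-regulated at −0.13, −2.55, −2.5, −1.85 and −3.89 against from −0.68 to 1.16 (median −0.15), with CAAM mouse 2 at the water level and the other 4 below every water mouse (−2.18, −3.72 without it). Pklr, the pyruvate kinase of hepatocytes, was down-regulated at 0.44, −0.56, −1.26, −0.62 and −0.74 against from −1.28 to 2.36 (median −0.14), a difference of −0.55 that was −0.25 without water mouse 2 and −0.36 without CAAM mouse 5. The remaining call of the first list was Pdk1, there at its brightest probe set. In the second list Pck1 was up-regulated at 0.66, 1.61, 0.56, 1.71 and 1.29 against from −1.68 to 1.78 (median 0.16), and G6pc, which frees glucose from its phosphate, with a difference of 0.42. Ldha, a lactate dehydrogenase subunit that this list holds although it also serves glycolysis, was up-regulated at −0.08, 0.29, 3.6, 1.09 and 1.83 against from −0.52 to 0.96 (median −0.06), and its call was lost without CAAM mouse 4, 5, 6 or 7 (differences of 1.65, 1.23, 1.34 and 1.18). Slc2a2, the glucose transporter of the hepatocyte membrane, was not called at −2.36, −0.34, −3.22, −1.42 and −1.6 against from −1.59 to 1.2 (median 0.14).

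Lipid genes were called in both directions. Of 23 genes of fatty acid synthesis 6 were down-regulated and 2 up-regulated, 1 of them in both directions (background 1.46% and 2.03% of genes). The number down-regulated was, however, 2 without CAAM mouse 5, 3 without CAAM mouse 4 and 2 or 3 without any 1 of water mice 1 to 5. With ranks taken on SD units none was called. Thrsp, a nuclear inducer of lipogenesis, scored −1.43, −1.58, −0.88, 0.88 and −0.32 against from −1.16 to 1.22 (median 0.13) (−0.67, −0.44 without CAAM mouse 4 and −1.19 without CAAM mouse 6). Acacb, the acetyl-CoA carboxylase that holds back fatty acid oxidation, had a difference of −0.68 (−1.1 to −0.40 with 1 mouse left out) and Mlxipl, the carbohydrate response factor, one of −0.63 (−0.97 to −0.20). Both lost the call without most single mice. Fads2, the delta-6 desaturase, was up-regulated at 0.47, −0.023, 1.87, 0.76 and 3.33 against from −0.74 to 1.03 (median −0.15) (1.28), with CAAM mouse 7 highest and the call lost without it (1.06). Of 20 genes of cholesterol synthesis and uptake 4 were up-regulated and 1 down-regulated (background 2.03% and 1.46% of genes). Cyp51, a sterol demethylase, scored 0.55, 1.18, 1.68, 2.99 and 0.30 against from −0.92 to 1.45 (median −0.41) (1.34), and Sqle, squalene epoxidase, 0.82, −0.29, 2.86, 2.06 and −0.15 against from −0.52 to 1.2 (median −0.29) (1.06). Sqle lost its call without CAAM mouse 5 (0.75) or 6 (0.82).

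Of 31 genes of PPARα and fatty acid oxidation 8 were up-regulated and 6 down-regulated, 4 of them in both directions (background 2.03% and 1.46% of genes). The number up-regulated ran from 3 without CAAM mouse 5, 6 or 7 to 9 without water mouse 4, 6 or 7. None was called with ranks taken on SD units. Cd36, a fatty acid importer, was up-regulated at −0.34, 0.33, 2.29, 2.95 and 0.51 against from −0.65 to 0.92 (median −0.15), with mice 5 and 6 above all water mice (1.15). That call ended when water mouse 1, 2 or 3, or any CAAM mouse but mouse 2, was removed, at differences from 0.86 to 1.34. Lipoprotein genes included Pltp, the phospholipid transfer protein, which was up-regulated without overlap at 0.66, 0.52, 2.98, 3.86 and 1.56 against from −1.06 to 0.33 (median 0.25) (1.92), highest in mice 5 and 6. Such a lack of overlap was seen in 0.165% of genes in this direction. Apoa4, an apolipoprotein induced by fat and fasting, was up-regulated at 2.1, −0.37, 2.33, 2.17 and 0.67 against from −0.82 to 1.78 (median −0.19) (1.38, 2.2 without CAAM mouse 4). Scarb1, the receptor for high density lipoprotein, was not called (1.38, 3.27, 0.55, 0.56 and 1.71 against from −1.52 to 0.86 (median 0.42)), although every CAAM mouse exceeded the water median. Among 25 genes of bile acid synthesis and transport 3 were up-regulated and 4 down-regulated, 1 of them in both directions (the same background). The sinusoidal importer Slco1a4 was up-regulated at 0.27, 1.94, 0.46, 1.55 and 1.53 against from −1.44 to 2.17 (median −0.25) (1.15, 2.15 without water mouse 6). The export pump Abcc4, which was not called, stood at 0.86, 1.18, 2.56, 3.06 and 3.36 against from −1.78 to 0.90 (median 0.29), above all water mice in 4 of 5 CAAM mice.

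Detoxification genes were called lower when they were called at all. Of 24 glutathione transferases 6 were down-regulated and 0 up-regulated (background 1.46% and 2.03% of genes), with a list median of −0.02 (0.086 with arrays centred, −0.65 after quantile normalization). The number down-regulated ran from 4 to 8 over mice left out and was 0 with ranks taken on SD units. Gsta4, which conjugates lipid aldehydes, scored 0.92, −1.38, −2.34, −2.04 and −2.16 against from −1.03 to 0.98 (median 0.24), with CAAM mouse 2 unlike the other 4 (−1.4, −3.29 without it). Its call was lost without any of water mice 1, 2, 3, 4 and 6 and CAAM mice 5, 6 and 7, at differences from −1.41 to −1.17. CAAM mouse 2 also stood apart for Gsta2, at 1.13, −1.48, −1.27, −0.94 and −1.36 against from −1.34 to 1.42 (median −0.13) (−0.79, −1.63 without it). Gstt2 was down-regulated with a difference of −0.52 (−0.81 to −0.26 with 1 mouse left out). Gss, which makes glutathione itself, was not called (1.26, 2.04 without water mouse 2), and its sign turned under quantile normalization. Of 22 genes of xenobiotic P450 and conjugation 4 were down-regulated and 0 up-regulated (the same background). Cyp1a2, the pericentral P450 that clears caffeine, scored −1.12, 0.22, −1.07, −2.31 and −0.79 against from −1.74 to 1.62 (median 0.21) (−1.01, −1.54 without water mouse 4), a sign that turned under quantile normalization. The receptor Ahr, which drives Cyp1a2, was not called at −0.37, 2.05, 1.97, 2.94 and 0.52 against from −1.02 to 1.12 (median 0.19).

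Carbonic anhydrases, which interconvert carbon dioxide and bicarbonate, had lower means in 10 of 11 genes, each taken at its brightest probe set, and 1 call. The background was 43.6% of genes with a higher mean and 1.46% down-regulated. Car14, a membrane-bound form, was down-regulated at −0.23, −0.67, −2.81, −2.27 and −3.41 against from −0.81 to 0.90 (median 0.28) (−1.88). Car5a, the mitochondrial form that feeds bicarbonate to the urea cycle, did not overlap, as was so for 0.374% of genes in this direction (−1.19, −0.74, −4.19, −1.68 and −3.41 against from −0.57 to 0.83 (median −0.077), −2.24), and Car1 scored −0.76, −1.91, −1.27, −2.34 and −2.17 against from −2.17 to 1.09 (median 0.41) (−1.69, −2.9 without water mouse 4). Neither of the latter was called and the sign of both turned under quantile normalization. The list median was −0.58, −0.45 with arrays centred and −0.23 after quantile normalization.

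Genes with a sex bias set by pulsatile growth hormone were called in opposite directions. Of 14 male-biased liver genes 4 were down-regulated and 0 up-regulated (background 1.46% and 2.03% of genes). Of 14 female-biased genes 5 were up-regulated and 1 down-regulated, 1 of them in both directions. No member of either list reached an unadjusted limma p under 0.05, and none was called with ranks taken on SD units. Elovl3, a male-biased elongase, scored −0.47, 1.1, −0.32, −1.81 and −1.57 against from −1.77 to 0.87 (median 0.13) (−0.61, −1.24 to −0.33 with 1 mouse left out), and the steroid dehydrogenase Hsd3b5 had −0.48 (−0.84 to −0.075). Water mouse 6 was the lowest of its group for both, at −1.77 and −1.57. Among the female-biased genes Cyp17a1, a steroid hydroxylase, scored −0.58, 0.45, 1.05, 1.94 and 1.54 against from −1.29 to 1.55 (median −0.18) (0.88, 1.37 without CAAM mouse 2 and, with the call lost, 0.63 without CAAM mouse 6). Hao2, a peroxisomal hydroxyacid oxidase, had 0.62, which was 0.24 without CAAM mouse 2 and 1.23 without CAAM mouse 4. Cish, a feedback inhibitor of growth hormone signalling, was down-regulated at −0.35, −0.73, −2.09, −1.9 and −1.73 against from −1.45 to 1.74 (median −0.092) (−1.36), with each CAAM mouse under the water median. The receptor Ghr was not called (−1.68, 0.48, −2.52, −1.59 and −0.98 against from −1.56 to 0.90 (median 0.099)).

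Kupffer cell markers were called more often than any other of the 48 lists. Of 16 measured markers 12 were up-regulated and 0 down-regulated (background 2.03% and 1.46% of genes), and 15 had a higher mean in the CAAM group (background 43.6%). Leaving out any 1 of the 12 mice again gave 12 calls. With ranks taken on SD units no marker was called. Vsig4, the complement receptor of Kupffer cells, scored 0.056, 1.51, 3.8, 1.46 and 1.64 against from −1.32 to 0.69 (median 0.17) (1.69). Clec4f, a lectin restricted to Kupffer cells, scored −0.30, 0.71, 2.84, 1.43 and 0.64 against from −1.41 to 1.36 (median −0.13) (1.06), and Timd4, a receptor for dying cells on resident macrophages, 0.15, 0.71, 3.32, 0.60 and 1.02 against from −0.78 to 1.63 (median −0.26) (1.16). Cd163, the haemoglobin scavenger receptor, scored 0.41, 1.65, 2.53, 1.36 and 0.44 against from −2.01 to 0.96 (median 0.39) (1.28), and the lysozyme gene Lyz2 0.14, 0.21, 3.51, −0.17 and 0.89 against from −0.47 to 0.65 (median 0.089) (0.91). Mrc1, the mannose receptor of macrophages and sinusoidal endothelium, was not called (1.6, 2.46 without CAAM mouse 2). CAAM mouse 5 was the highest of all 12 mice for each of these 6 genes.

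The Kupffer cell list score was −1.09 to 0.96 in water mice (lowest in mouse 6, highest in mouse 3) and 0.12, 0.84, 2.77, 0.73 and 1.29 in CAAM mice. Without CAAM mouse 5 the median standardised difference of the markers went from 1.23 to 0.97. RNA came from whole liver pieces, in which more cells of a type and more RNA per cell cannot be told apart. Among markers of other cells, 1 of 13 was up-regulated for lymphocytes, 2 of 11 for neutrophils, 1 of 13 for endothelial cells, 1 of 13 for stellate cells and 1 of 11 for hepatocytes, and 0 were down-regulated in these 5 lists (background 2.03% and 1.46% of genes). Endothelial and stellate markers had a higher mean in 12 of 13 cases each, with medians of 0.40 and 0.48, and 2 endothelial markers were higher at an unadjusted limma p under 0.05. Neutrophil markers had a higher mean in 5 of 11 cases and a lower one in 6 (median −0.31), and lymphocyte markers in 7 and 6 of 13 (median 0.16). The called neutrophil genes were S100a8 (0.028, 0.51, 3.34, 0.85 and −0.41) and S100a9 (0.20, 0.47, 3.33, 1.22 and −0.51), the subunits of calprotectin. The called lymphocyte gene was the granzyme Gzma (0.13, −0.15, 3.47, −0.096 and 0.55). All 3 were far higher in CAAM mouse 5 than in any other mouse. Without it their differences went from 0.86 to 0.48, from 0.94 to 0.61 with the call lost, and from 0.78 to 0.33. Mean liver scores of S100a8, S100a9 and Gzma were 6.67, 6.67 and 6.79, below the liver array median of 6.81. The junction gene of endothelium Cdh5 was not called (1.94), and its sign turned under quantile normalization.

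Acute phase genes were up-regulated in 13 of 31 cases and down-regulated in 4, 2 of them in both directions (background 2.03% and 1.46% of genes), and 0 were called with ranks taken on SD units. The list score was 2.24 in CAAM mouse 5 and 0.90 in mouse 6, against 0.036 to 0.21 in the other 3 CAAM mice and −0.28 to 0.59 in the water mice. Without CAAM mouse 5 the calls were 10 higher and 6 lower, and the list median fell from 0.82 to 0.41. Cd14, the receptor for bacterial lipopolysaccharide, was above all water mice in each CAAM mouse but mainly in mouse 5, at 0.63, 0.58, 4.07, 0.49 and 0.72 against from −0.37 to 0.26 (median 0.14) (1.3, 2.89 without it, since the spread shrinks too). Il6ra, the receptor through which interleukin-6 induces acute phase genes, scored −0.0016, 0.68, 1.22, 3.29 and 1.42 against from −0.83 to 1.57 (median −0.063), highest in mouse 6 (1.32). Apcs, serum amyloid P, scored 1.03, 0.79, 2.76, 0.74 and 0.78 against from −1.38 to 1.78 (median 0.16), and the cytokine Il1b 0.55, 0.29, 3.69, −0.33 and 1.04 against from −0.36 to 0.23 (median 0.083). Hamp, the iron hormone hepcidin, was even across the CAAM mice at 0.97, 0.77, 1.01, 1.26 and 0.39, against from −2.56 to 1.09 (median 0.60) in the water mice (0.88).

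Interferon-induced genes were up-regulated in 17 of 32 cases and down-regulated in 2, 1 of them in both directions (background 2.03% and 1.46% of genes). A higher mean in the CAAM group was seen in 31 of 32 (background 43.6%). Yet no member reached an unadjusted limma p under 0.05 and none was called with ranks taken on SD units. Several single mice weighed on these counts. Water mouse 3 had the highest list score of its group (1.64, against −0.91 to 0.25 in the other 6) and CAAM mouse 4 the lowest of its own (−0.85, against 0.40 to 1.64). The calls were 23 higher and 0 lower without water mouse 3 and 21 and 0 without CAAM mouse 4, but 10 and 2 without CAAM mouse 5 or without CAAM mouse 7. The list median of 0.61 was 1.08 without water mouse 3 and 1.04 without CAAM mouse 4. Ifit1, which binds viral RNA, scored 0.70, −1.37, 0.62, 0.56 and 1.96 against from −0.69 to 1.87 (median −0.23) (0.49, 0.99 without water mouse 3, 1.21 without CAAM mouse 4 and 0.14 without CAAM mouse 7). Irgm1, a GTPase of macrophage defence, scored 0.71, −0.20, 2.53, 0.22 and 0.96 against from −0.85 to 2.03 (median −0.20) (0.84, 1.56 without water mouse 3 and 0.50 without CAAM mouse 5). Irf1, an interferon-induced factor, was called lower at −0.19, a sign that turned without water mouse 3, CAAM mouse 4 or CAAM mouse 6 (0.23, 0.0095 and 0.079). Ifih1, a sensor of viral RNA, had the lowest limma p of the list without a call (1.17), and its sign turned under quantile normalization.

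**Figure D4:**
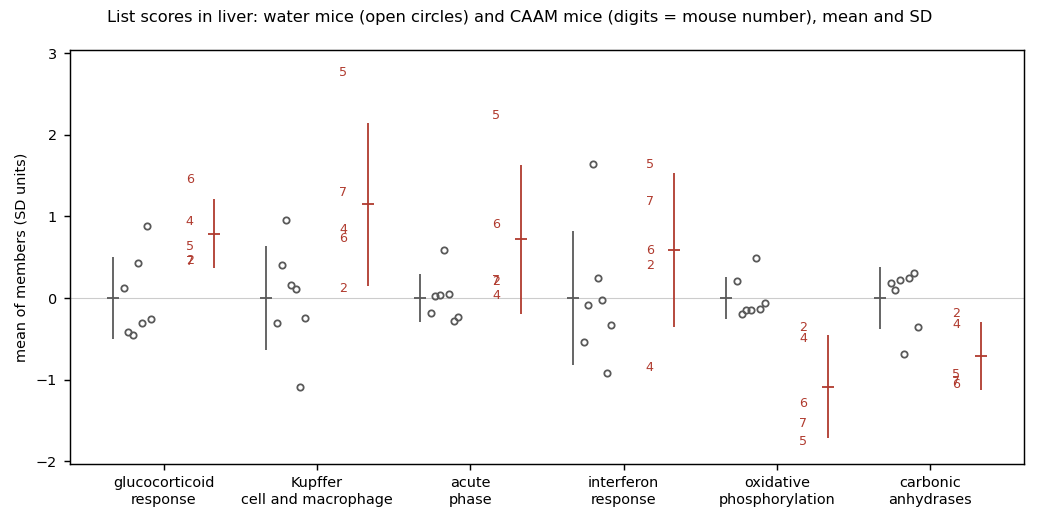
List scores in liver, the mean of the members in SD units from the water mean (vertical axis), for 6 gene lists in each water mouse (open circles) and CAAM mouse (digits give the mouse number), with a bar for the group mean and its SD. CAAM mouse 5 stands at 2.77 for Kupffer cell markers and 2.24 for the acute phase, water mouse 3 at 1.64 for interferon genes, and the oxidative phosphorylation scores of the 2 groups do not overlap.

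Nuclear genes of oxidative phosphorylation were lower in the CAAM group without being called by rank products as a set. Of 31 measured subunits 30 had a lower mean, 10 of them at an unadjusted limma p under 0.05 and none of the list higher at that p (background 4.16% of genes lower and 2.81% higher), and the list score was −0.36, −0.49, −1.76, −1.29 and −1.53 in CAAM mice against −0.20 to 0.49 in water mice. Besides Sdhb, the complex I gene Ndufs3 scored −2.12, −1.06, −2.29, −1.73 and −2.46 against from −1.42 to 1.65 (median −0.022) and the ATP synthase gene Atp5a1 −1.51, −3.14, −2.68, −1.89 and −2.48 against from −1.53 to 1.72 (median −0.30) (−1.93 and −2.34). Ndufb3 had a difference of −1.63, and its sign turned under quantile normalization. Leaving out 1 mouse kept the list median between −1.27 and −0.92, but it was −0.71 when all probe sets of a gene were averaged and −0.55 after quantile normalization. These are bright probe sets whose differences are small next to the span of the array medians, 0.000345 score units; with arrays centred in SD units the median was −0.98.

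A few probe sets separated single mouse numbers in every tissue rather than the groups. Arrays of liver, white fat and brown fat with the same group and number were taken as 1 animal, which the labels do not state in words. In 67 of 45037 probe sets (0.149%) the liver scores correlated at r above 0.9 over the 12 mice with those of both fats at the same numbers, each centred within its group. They made up 38 of the 1206 called probe sets (3.15%) and 0 of the 199 without overlap. Sdhd, the membrane anchor of succinate dehydrogenase, chosen here after its values were seen, was called in both directions. It scored from 6.87 to 7.14 in the livers of water mouse 2 and CAAM mice 2, 6 and 7 and from 9.06 to 9.63 in the other 8, and the same 4 numbers were low in both fats. Uqcr10, a complex III subunit and a leading down-regulated gene, was high in water mice 1, 3 and 4 alone, at −1.03, −1.15, −1.2, −0.99 and −1.08 SD units in the CAAM group and from −1.13 to 1.45 (median −0.96) in the water group. Gdpd3, a lysophospholipase of the glycerophosphodiester family, was high in water mice 1, 3, 6 and 7 and CAAM mouse 4 (−0.75, −1.42 without that mouse). Reep3 was low in water mouse 2 and CAAM mouse 4 in all 3 tissues.

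**Figure D5:**
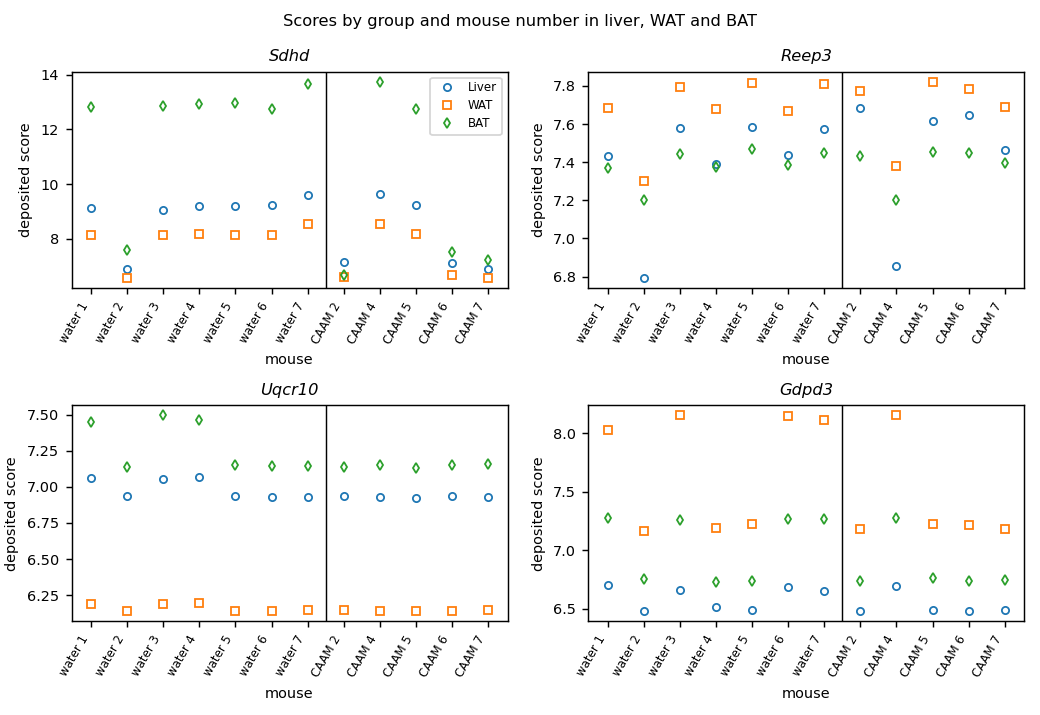
Deposited scores (vertical axes) of 4 genes in liver, white fat (WAT) and brown fat (BAT) by group and mouse number (horizontal axes; water mice left of the line, CAAM mice right of it). High and low numbers are the same in the 3 tissues: Sdhd is low in water mouse 2 and CAAM mice 2, 6 and 7, and Uqcr10 is high in water mice 1, 3 and 4.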

How the data were processed

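Liver RNA of single mice was hybridised to Affymetrix Mouse Genome 430 2.0 arrays. The authors turned the scanned arrays into distribution free weighted scores with Bioconductor (the submission notes give R 2.7.2). Each deposited table holds 1 such score for each probe set on each array and no depth, and precision is set by how many arrays there were. The comparison used the deposited scores of 45037 probe sets (64 of 45101 were controls). The platform annotation gave 34945 of them 1 gene symbol, 932 several and 9160 none. In lists the brightest probe set in liver, by mean score, stands for a gene, and 930 of 1024 list entries were measured.

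Groups came from the sample titles: 5 CAAM and 7 water mice, separate animals. Rank products were computed in python 3.11.15 (numpy 2.4.6, pandas 2.3.3) over all 35 pairs of arrays with 100 permutations and a threshold of 0.05 on the estimated share of false calls. Two-sided limma tests (version 3.58.1, R 4.3.3, functions lmFit and eBayes) had 0.674 prior degrees of freedom and gave p values with Benjamini-Hochberg adjustment over all probe sets. Both were tested on simulated data. The members and lists were chosen with earlier results of these data known. Named were the 8 genes per direction with the lowest rank product (1 symbol, called in that direction alone, at least 4 of 5 CAAM mice on that side of the water median), the 8 per direction without overlap with the lowest limma p and a mean above the median probe set, and in each list members called or with the lowest limma p. The alternatives were arrays centred in SD units, quantile normalization, a filter on dim probe sets, ranks on SD units, sums of ranks, other limma priors and array weights, a replicate block and leaving out each mouse. Promoter sequences are RefSeq's (GRCm38.p6). Figures were drawn with matplotlib 3.10.9.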

Additional observations from a re-analysis of the deposited data

Results flagged for a closer look

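In 29 of 320 groups examined (named genes and list scores in each group), 1 mouse stood apart from the rest of its group, its gap to the nearest mouse divided by the range of the group being above the critical value of Dixon's test at the 5% level. Chance marks about 1 in 20 such groups. CAAM mouse 5 was high in 6 of them, all genes: the lipopolysaccharide receptor Cd14 (0.937), the insulin signalling phosphatase Ptpn1 (0.867), serum amyloid P Apcs (0.859), the granzyme Gzma (0.804) and the macrophage genes Timd4 (0.727) and Lyz2 (0.713). CAAM mouse 6 stood apart for Sntb1 (0.772), Nabp1 (0.766) and Zfp36 (0.711), CAAM mouse 4 for Gdpd3 (0.935) and Reep3 (0.729), and CAAM mouse 2 for Gsta2 (0.791).

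Among water mice, mouse 3 was high for the interferon-induced genes Ifit1 (0.759), Irgm1 (0.619) and Irf1 (0.605) and for Timd4 (0.607). Mouse 6 was high for the hormone-induced genes Tsc22d3 (0.757) and Per1 (0.588) and for the transporter Slc38a2 (0.57), and low for the male-biased list (0.616). Mouse 2 stood apart for Reep3 (0.753), Ndufb3 (0.61), Fabp5 (0.604) and the list of fatty acid binding proteins (0.772). Mouse 4 did so for Pltp (0.709), Apoa4 (0.62) and the acute phase list (0.623), mouse 1 for Armcx4 (0.715) and mouse 7 for the list of serine, folate and one-carbon genes (0.663).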

How the results depend on the processing

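Rank products gave 730 probe sets higher and 535 lower on the deposited scores, and these counts depended on the scale of the ranks. They were 127 and 177 with ranks taken on SD units, with or without centring each array, 85 and 22 with sums of ranks, 389 and 299 without dim probe sets and 430 and 623 after quantile normalization, of which 28 and 10, 65 and 17, 389 and 299, and 413 and 321 were shared with the deposited scores. Leaving out 1 mouse gave 425 to 775 higher and 397 to 651 lower, and the share of calls that were higher, 57.7%, went to 44.0% to 47.3% without any 1 of the CAAM mice, 61.4% to 65.5% without any 1 of the water mice, 41.8% on SD units, 40.8% after quantile normalization and 79.4% with sums of ranks. limma passed 0 probe sets in each setting except without CAAM mouse 7, where it passed 1 (range 0 to 1), Lrit1 (adjusted p = 0.0055), a dim probe set with a standardised difference of −3.53 over all mice. Without dim probe sets limma gave 802 higher and 644 lower at an unadjusted p under 0.05. Without overlap there were 6 higher and 49 lower after quantile normalization, 46 and 49 without dim probe sets, and 89 to 159 and 153 to 318 with 1 mouse left out. With the replicate block, rank products gave 898 and 445 (66.9% higher) and limma 0 (lowest adjusted p = 0.600). Mice of the same number are different animals, and their deviations correlated at 0.118, −0.153, 0.151, 0.021 and 0.040 for numbers 2, 4, 5, 6 and 7, so the numbers were not taken to pair mice. Under the block 107 of 112 named genes kept their sign, and kept the call if they had one or else moved by less than 1 SD unit. Of the rest, 4 lost the call and Irf1 turned to 0.14. Quantile normalization moved the median of all probe sets from −0.09 to −0.49. After it the medians of glutathione transferases and oxidative phosphorylation were −0.65 and −0.55. Sdhb, Ndufs7, Ndufs3 and Slc2a2 tied at the same value of −1.2, which is not read as a size, and Atp5a1, Ghr, Gstz1 and Ldha had no spread left and so no value. The standardised difference turned for Kctd12b (−1.13), Tnfrsf1b (−0.43), Atp2b1 (−0.42), Nabp1 (−0.68), Atf6 (−0.25), Sntb1 (−0.55), Gadd45b (−0.39), Prodh2 (0.71), Slc7a8 (−1.45), Gss (−0.22), Car5a (0.80), Car1 (0.037), Cyp1a2 (0.26), Cdh5 (−1.07), Ifih1 (−1.11) and Ndufb3 (0.47). With 1 mouse left out, signs turned for Reep3 (−0.20 to 0.86), Dbp (−0.57 to 0.13), Per3 (−0.60 to 0.055) and Irf1 (−0.44 to 0.23). With arrays centred and ranks on SD units, 71 named genes lost the call and none turned. The other 41 kept their sign, and either kept a call or, if not called on the deposited scores, moved by less than 1 SD unit. Some of the latter, among them Sdhb and Kctd12b, gained a call. The calls were the same in number without centring. This was fixed in advance, because centring shifts all differences of a pair of arrays alike and leaves their ranks as they are. The causes were not tested.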
